A study of Drosophila melanogaster with 4 samples.

Results

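The 3 yolk protein genes of the fruit fly, Yp1, Yp2 and Yp3, and the oocyte thioredoxin gene deadhead (dhd) were followed spot by spot on cDNA arrays that compared cold-shocked with untreated males. Included were the array spots whose annotation gives one of these 4 symbols and no other, which came to 8 of the 27648 spots of the 12k array design, a printed pair for each gene, and to 4 of its 6793 named genes. The genes were picked because Yp1 and dhd had some of the lowest ratios on these same arrays although the flies were labelled male. Their own ratios are therefore given as a description, with no test.

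The flies were whole adult Drosophila melanogaster males of the strain dp cn bw cl, aged 6 to 7 days after eclosion, and both groups carry the markers of that strain. Per the labels, the flies had been held in mixed company on fresh medium, where laying could occur, before the males were picked out. Cold-shocked males spent 2 h at 0 ± 0.5 °C and then recovered for 30 min at 25 °C, while untreated males, reared together with them and assigned at random, stayed at 25 °C in the treatment vessel. Each of 3 arrays of the 12k design carried 1 independent pair of RNA samples, with cold-shocked RNA in Cy5 and untreated RNA in Cy3, and the number of flies behind each sample is not given in the sources used here. One further pilot array, of the 7k design and with the dyes reversed, held 0 of the 4 genes and was not used for them.

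Yolk proteins are the major food store of the insect egg. In Drosophila they are made by the fat body and the ovarian follicle cells of adult females, secreted, and taken up into the growing oocyte by the receptor Yolkless. The sex-specific products of doublesex, together with ecdysone and juvenile hormone, control their synthesis, and the male form of Doublesex represses them. They are relatives of lipases. The gene dhd encodes a thioredoxin, a small protein that reduces disulfide bonds, which is stored in the egg and is needed there to unpack the sperm chromatin after fertilisation.

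Each spot had 1 normalized log ratio from the authors, read here on the log2 scale. A value below 0 is likely a lower level in the cold-shocked flies, since Cy5 over Cy3 and treated over untreated run the same way on these arrays, but no source used here states it. All 3 arrays had the same dye orientation, so dye and treatment cannot be told apart. Channel intensities were not used here, so no spot could be set against its background, and a ratio does not show how much transcript either channel held. In whole flies, fewer cells of a type and less RNA per cell also cannot be told apart. Array medians lay between −0.13 and 0.03, and the SD over all spots was 0.729, 0.457 and 0.697 on arrays 1 to 3. Ratios of the named genes correlated weakly between arrays, with a Pearson's r across genes (not independent of each other) between 0.0782 and 0.0983. Of 19325 features tested with limma on the 3 arrays, 0 (0%) had a Benjamini-Hochberg adjusted p under 0.05 and 924 (4.78%) an unadjusted p under 0.05, 637 of them lower (3.3%) and 287 higher (1.49%).

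Yp1 (CG2985), on the X chromosome, had the lowest mean log2 ratio of all named genes. Its first spot stood at −3.92, −2.34 and −1.73 on arrays 1, 2 and 3, and its second spot at −4.52, −2.30 and −1.07. All 6 values were below 0, with array 1 the lowest and array 3 the nearest to 0 for both spots. Averaged over the printed pair, the log2 ratio was −4.22, −2.32 and −1.40, or 18.6-fold, 4.98-fold and 2.64-fold lower after cold shock if the direction is as taken. The mean was −2.64 ± 1.44 (SD, n = 3 arrays), and the spread between arrays, 2.82 from the lowest to the highest, was larger than the mean itself.

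The printed pair shows how far adjacent spots of Yp1 differed within each array, and error that such spots share does not appear in it. The Yp1 spots differed by 0.601, 0.0395 and 0.668 in log2 on arrays 1 to 3. The median printed pair of the same arrays differed by 0.326, 0.341 and 0.394. Over all printed pairs, the rank correlation between the spots of a pair was 0.462, 0.274 and 0.435 on arrays 1 to 3.

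Yp2 (CG2979) had a low ratio on array 1 and ratios near 0 on the other arrays. Its spots stood at −1.96 and −2.16 on array 1, at −0.31 and −0.20 on array 2 and at −0.26 and 0.12 on array 3. The means of the pair were −2.06, −0.25 and −0.07, or 4.16-fold, 1.19-fold and 1.05-fold lower. The mean over arrays, −0.79 ± 1.10 (SD, n = 3), had an SD larger than its own size, and it was −0.16 without array 1. The low mean of Yp2 therefore rests on array 1.

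Yp3 (CG11129) lay between its relatives by mean. Its first spot stood at −1.44, −0.49 and −0.93 on arrays 1 to 3 and its second at −2.12, −1.11 and 0.17. The spots of this pair disagreed on array 3, where they lay on opposite sides of 0 and differed by 1.10, a gap at the 90.6 percentile of the printed pairs of that array. The pair means were −1.78, −0.80 and −0.38, or 3.44-fold, 1.74-fold and 1.30-fold lower. The mean over arrays was −0.99 ± 0.72 (SD, n = 3), and −0.59 without array 1.

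A second printed pair of the 12k design is annotated to Yp3 and to Rtc1 at once, Rtc1 being the gene next to Yp3 in the RefSeq order, and was outside the rule. Its spots stood at −0.14 and 0.26 on array 1, −0.20 and −0.06 on array 2, and −0.62 and −0.08 on array 3. These values lay close to 0, and on arrays 1 and 2 each was nearer to 0 than either spot annotated to Yp3 alone. What either gene adds to the shared spots cannot be told apart.

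**Figure D1:**
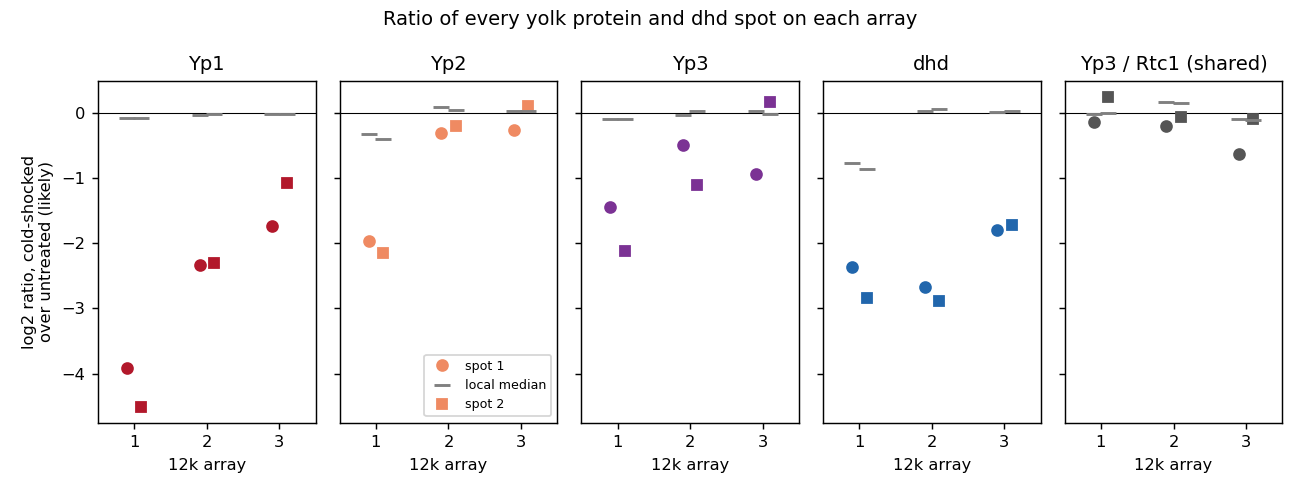
The vertical axis is the log2 ratio of each spot and the horizontal axis the 12k array (1 to 3); circles and squares are the spots of a printed pair and grey dashes the median of the surrounding spots. Both spots of Yp1 and of dhd lie below −1 on all 3 arrays, whereas Yp2 is far below 0 on array 1 alone and the spots shared with Rtc1 lie near 0.

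Array 1 gave the lowest ratio and array 3 the highest for each of the 3 yolk protein genes. Within arrays, Yp1 was below its relatives. The Yp1 minus Yp2 difference was −2.16, −2.06 and −1.33 on arrays 1 to 3, with a mean of −1.85 ± 0.46 (SD, n = 3). The Yp1 minus Yp3 difference was −2.44, −1.52 and −1.02, with a mean of −1.66 ± 0.72. In both comparisons the pair of Yp1 spots lay wholly below the other pair on 3 of 3 arrays. Yp2 and Yp3 did not separate. Their difference, Yp2 minus Yp3, was −0.28, 0.55 and 0.31, with a mean of 0.19 ± 0.42 (SD, n = 3), and it changed sign between arrays. These differences are between ratios, and they say nothing of the level of one yolk protein transcript against another.

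The gene dhd (CG4193), also on the X chromosome, had the most even low ratio of the 4. Its spots stood at −2.36 and −2.83 on array 1, −2.67 and −2.89 on array 2, and −1.79 and −1.72 on array 3. The highest of the 6 values was −1.72, and the pair differed by 0.475, 0.212 and 0.0690 on arrays 1 to 3. The pair means were −2.60, −2.78 and −1.75, or 6.05-fold, 6.87-fold and 3.37-fold lower. The mean was −2.38 ± 0.55 (SD, n = 3), and between −2.69 and −2.18 when any one array was left out. Unlike the yolk protein genes, dhd was lowest on array 2. The Yp1 minus dhd difference was −1.62, 0.46 and 0.35, so the order of these genes turned between array 1 and the others, and the mean difference of −0.27 ± 1.17 (SD, n = 3) was well inside its spread.

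Place among all genes differed between arrays. Counted from the lowest of the 6793 named genes, Yp1 ranked 7, 2 and 152 on arrays 1 to 3. Over the same arrays dhd ranked 35, 1 and 84. Yp3 ranked 73, 70 and 1343, and Yp2 46, 1361 and 2849. On array 2, which had the narrowest distribution, dhd and Yp1 were thus the lowest of all named genes, and divided by that array's SD they stood at −6.08 and −5.07. On array 3 the corresponding values were −2.52 for dhd and −2.01 for Yp1.

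By mean over arrays, Yp1 ranked 1, dhd 3, Yp3 81 and Yp2 136 among the named genes. Between Yp1 and dhd lay CG14154, whose mean of −2.60 came from −6.63 on array 3. Next after dhd was drpr, an engulfment receptor gene of phagocytic and glial cells, at −1.93 ± 0.81 (SD, n = 3). Yp1 and dhd were thus at the low end of the distribution, while Yp2 and Yp3 were among the lower genes by mean but not at its end.

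Only 3 named genes, Yp1, dhd and drpr, had means below −1 on all 3 arrays, which is 0.0442% of those named. Among single spots 9 of 27648 (0.0326%) were below −1 on all arrays. Of these 9 spots, 4 were the printed pairs of Yp1 and dhd, 2 were those of drpr, 1 belonged to Gdap1 and 2 had no gene name. All 4 genes had pair means below 0 on all 3 arrays, where 16.9% of the named genes did. The rule used this contrast, so nothing is read from these shares. Over the 24 single values of the 8 spots, 22 were below 0 and 11 lay in the lowest 1% of their array. Their median was −1.76, against −0.02 for all spots.

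**Figure D2:**
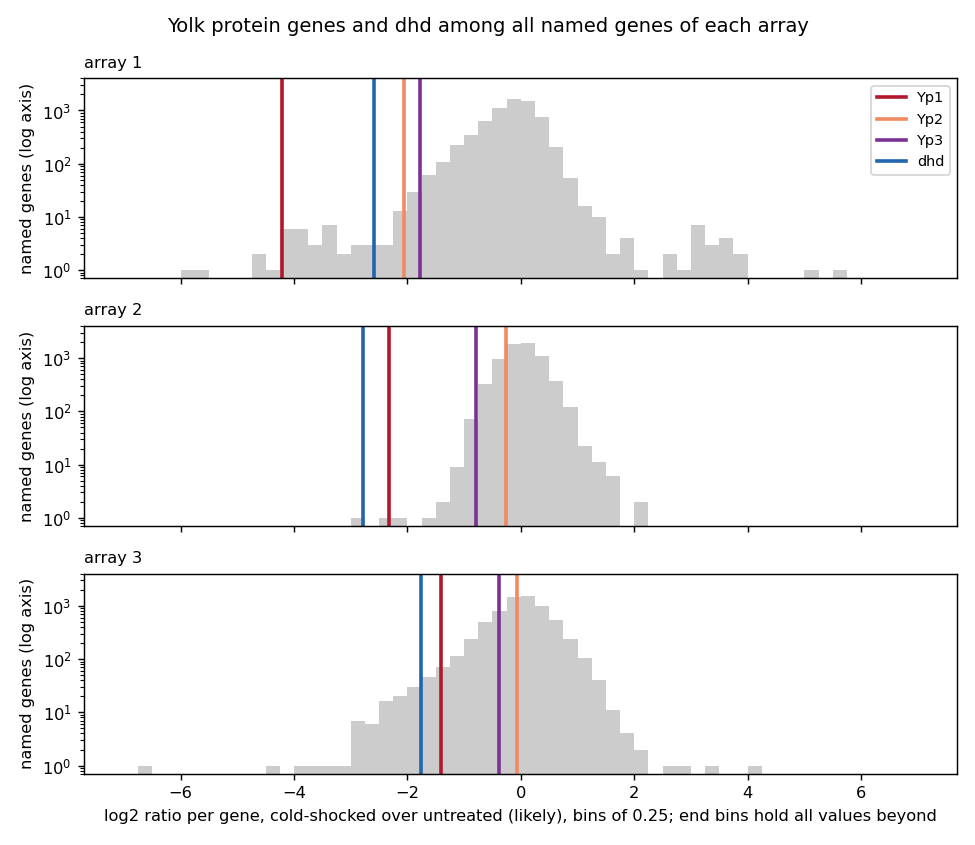
Each panel counts the named genes of 1 array (vertical axis, log scale) by log2 ratio (horizontal axis, bins of 0.25), with coloured lines at the yolk protein genes and dhd. The lines for Yp1 and dhd lie at or beyond the low end on array 2 and inside the low tail on arrays 1 and 3, and that for Yp2 moves from −2.06 on array 1 to −0.07 on array 3.

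Neighbouring spots on these slides had similar ratios, so the surroundings of each printed pair were set beside it. The arrays behave as 48 print blocks of 24 rows and 24 columns. The rank correlation between a row and the next was 0.329, 0.207 and 0.356 within a block on arrays 1 to 3, and 0.0783, 0.00635 and 0.0153 across the edge of a block. The median of the spots within 4 rows and 4 columns of Yp1, its own pair left out, was between −0.08 and −0.01 on all arrays. For dhd this local median was −0.76 and −0.85 at its spots on array 1, and between 0.01 and 0.06 on arrays 2 and 3. For Yp2 it was −0.32 and −0.40 at its spots on array 1.

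With local medians subtracted, Yp1 stood at −4.14, −2.29 and −1.39 on arrays 1 to 3 and dhd at −1.79, −2.83 and −1.78. Yp2 stood at −1.70, −0.33 and −0.11, and Yp3 at −1.69, −0.80 and −0.40. The means became −2.61 ± 1.40 for Yp1, −2.13 ± 0.60 for dhd, −0.96 ± 0.66 for Yp3 and −0.71 ± 0.86 for Yp2 (SD, n = 3). The largest shift was that of dhd on array 1, and each gene kept its sign on each array.

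Yp1 and Yp3 were printed next to each other: the Yp3 pair lies in the same columns as the Yp1 pair, 1 row away. On array 1, where Yp1 was at −4.22, its other neighbours were dpr16 at −0.17 on the left, an unnamed pair at −0.29 on the right and CG32119 at 0.28 on the other side. CG32119 stood at −0.42 and −0.64 on arrays 2 and 3, and on array 3 a spot further along the row of Yp1 stood at −2.28, below both Yp1 spots. Further surrounding spots on array 3, down to −1.51, were below the second Yp1 spot, at −1.07. Beside Yp3 on array 1 lay Nplp2 at 0.75 and an unnamed pair at 0.25, with CG17715 at −0.09 in the next row. Yp2 and dhd lie in other blocks of the slide. On array 1 Yp2 had CG9114 beside it at −1.56 and COX4 on the other side at −0.25, and CG9114 stood at 1.34 on array 2. The CG9114 spot nearest to Yp2 stood at −1.961 on array 1, below the first Yp2 spot at −1.959, and another surrounding spot stood at −1.90. Surrounding spots down to −0.86 on array 2 and −1.46 on array 3 were below both Yp2 spots. Around dhd on array 1 the values were −1.05 for Nfs1, −1.19 for CG15514, −1.19 for Plc21C and −0.41 for CG46441, all below 0. Further off on array 1, a spot in the row of dhd stood at −2.38, below the first dhd spot. Another, 3 rows away, stood at −3.85, below both dhd spots, and spots in that same row stood at 5.44 and 4.73. On array 2 Nfs1, CG15514, Plc21C and CG46441 were at −0.10, −0.47, −0.70 and 0.24, with dhd at −2.78.

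**Figure D3:**
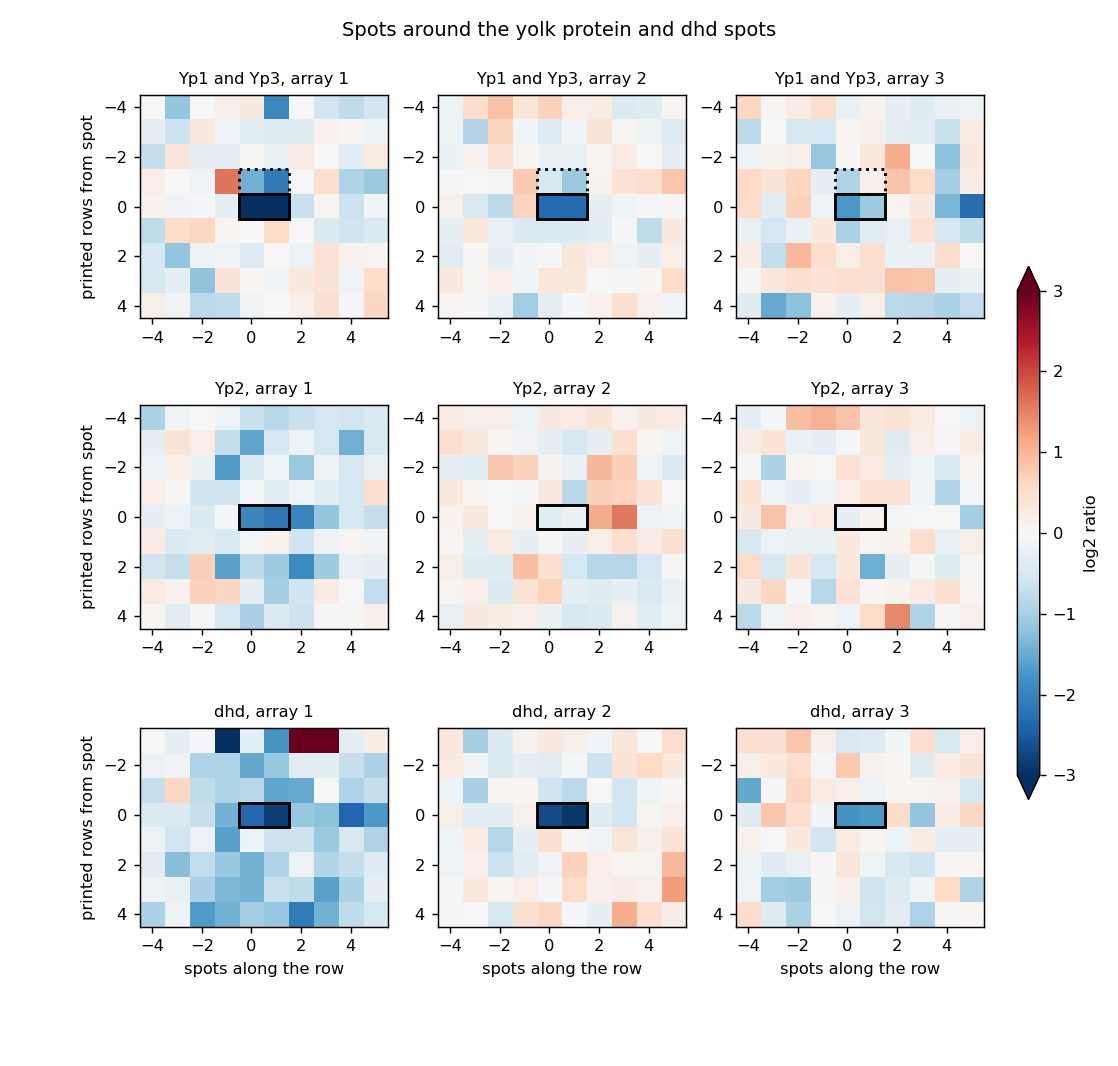
Each square is a spot at its printed position, coloured by log2 ratio, with rows and columns counted from the first spot of Yp1 (top), Yp2 (middle) or dhd (bottom); solid boxes mark these pairs and dotted boxes the Yp3 pair. The Yp1 pair is the lowest of its patch on arrays 1 and 2. On array 3 a spot at −2.28 is below both Yp1 spots, and further spots are below the second, at −1.07. Around Yp2 on array 1 a spot at −1.961 is below the first Yp2 spot, at −1.959. The area around dhd is mostly low on array 1, with single spots from −3.85, below both dhd spots, to 5.44. The area around dhd is mostly near 0 on arrays 2 and 3.

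Genes beside these 4 in the genome gave a further set that the choice of genes did not use. In the RefSeq order Yp1 and Yp2 are next to each other, and Yp3 lies elsewhere on the same chromosome. The closest measured genes around the pair were Cht6, a chitinase gene, at 0.08 ± 0.34, Dna2 at −0.09 ± 0.25 and CG15312 at −0.24 ± 0.37 (SD, n = 3). Beside Yp3 lay rdgB, which encodes a lipid transfer protein of the eye, at −0.03 ± 0.18, with CtsB, a cathepsin gene, at −0.32 ± 0.45. Each of these means was smaller than its SD.

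The closest measured genes to dhd were TrxT and CG4198. TrxT encodes the thioredoxin of the testis, and its log2 ratio was 0.01, 0.06 and −0.01 on arrays 1 to 3, a mean of 0.02 ± 0.04 (SD, n = 3). CG4198 stood at 0.21 ± 0.22. Of these adjacent germline thioredoxin genes, the oocyte gene was low on each array, at −2.60, −2.78 and −1.75, and the testis gene close to 0. The oocyte gene was picked for its low ratios, so nothing is read from this contrast.

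Likeness to each gene was measured as the Euclidean distance over the log2 ratios of the 3 arrays, with small values for like genes. The nearest to Yp1 were drpr at a distance of 1.54, dhd at 1.72 and CG12003 at 1.99. The nearest to dhd were drpr at 1.26, Yp1 at 1.72 and WDR79, which encodes a Cajal body protein, at 2.40. No named gene was close to either. Yp1 and dhd were picked for low ratios on these same arrays, so nothing is read from that. Yp2 had near matches in Akt, a kinase gene of insulin signalling, at 0.140, hlk at 0.280 and COX7A, of mitochondrial respiration, at 0.297. Yp3 had them in NimC4, a phagocytosis receptor gene, at 0.282, CG13552 at 0.316 and CG8010 at 0.322. Yp2 and Yp3 were 0.685 apart, and Yp1 was 3.27 from Yp2 and 3.05 from Yp3. Some of these matches changed with the surroundings: with local medians subtracted, the mean of hlk was −0.28 and that of CG13552 −0.40, against −0.81 and −0.85 before.

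Other genes of yolk synthesis, yolk uptake, eggshell and oocyte were measured in small numbers, 34 of 86 listed. Of the 34, 8 were below 0 on all 3 arrays (23.5%, against 16.9% of the named genes) and 3 were above 0 on all (8.82%, against 12.5%). Means were below 0 for 23 of the 34 and above 0 for 11, against 3869 and 2924 of the 6793 named genes. The median mean log2 ratio of the 34 was −0.15, and that of all named genes −0.05. By array, their medians were −0.35, −0.03 and −0.10, and with local medians subtracted the medians of the means were −0.08 for these genes and −0.02 for all. By limma 0 had an adjusted p under 0.05, and 2 were lower and 0 higher at an unadjusted p under 0.05, where 3.3% of all features were lower and 1.49% higher. With local medians subtracted, 8 were below 0 on all arrays (23.5%, against 16.1% of the named genes) and 2 above (against 14.9%). The lowest mean among them was −0.85, which is below that of Yp2 at −0.79. Yp1 and dhd were picked for their low ratios, so nothing is read from their distance to these genes.

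Regulators of yolk protein synthesis had no common sign, with means below 0 for 5 of 6 and above 0 for 1. Among the 6793 named genes 3869 means were below 0. The splicing gene tra (transformer), which sets female differentiation, was at −1.15, −0.39 and −0.40 on arrays 1 to 3, a mean of −0.65 ± 0.44 (SD, n = 3). Its target dsx (doublesex) stood at −0.50, −0.26 and −0.66, a mean of −0.47 ± 0.21. Its partner tra2 was above 0 on all 3 arrays, at 0.35 ± 0.15. None of the 3 passed limma's test, where the adjusted p was 0.853 for tra, dsx and tra2 alike. Parts of these means moved with the surroundings, and with local medians subtracted tra was at −0.25 and dsx at −0.31, where dsx was at 0.04 on array 1. Of 6 measured regulators out of 21, 2 were below 0 on all arrays (33.3%, against 16.9% of the named genes) and 1 above (16.7%, against 12.5%). With local medians subtracted 1 was below and 1 above, against 16.1% and 14.9% of the named genes.

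The genes of yolk uptake showed no common direction, with means below 0 for 3 of 4 and above 0 for 1. The yolk receptor gene yl (yolkless) stood at −0.88, 0.33 and −0.10, a mean of −0.22 ± 0.62 (SD, n = 3). The chaperone gene boca, needed for receptors of that family, was at −0.55 ± 0.90, set by −1.58 on array 3. The dynamin gene shi, which pinches off endocytic vesicles, was above 0 on all 3 arrays, at 0.49 ± 0.28. Of 4 measured genes out of 7, none was below 0 on all arrays (against 16.9% of the named genes) and 1 was above (25%, against 12.5%).

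Of the eggshell list 3 of 25 genes were measured, and the chorion and vitelline membrane proteins on it were not analysed here. Pxt, a peroxidase of egg maturation, was below 0 on all 3 arrays at −0.47 ± 0.21 (SD, n = 3). The gene tsl, of embryonic terminal patterning, was at −1.55, 0.05 and −1.04, and fs(1)N at −0.35, 0.76 and 0.34. These signs were mixed, and with local medians subtracted tsl moved from a mean of −0.85 to −0.37.

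The oogenesis and maternal list had 21 of 33 genes measured. Of these, 5 were below 0 on all 3 arrays (23.8%, against 16.9% of the named genes) and 1 above (4.76%, against 12.5%). The pole plasm gene osk stood at −0.59, −0.28 and −0.47, a mean of −0.45 ± 0.16 (SD, n = 3). The RNA transport gene egl was at −0.47 ± 0.30, and yem, a chromatin gene of the early embryo, at −0.31 ± 0.26. The gene cort, of female meiosis, was at −0.29 ± 0.06, and plu, of the kinase that drives the first embryonic cycles, at −0.73 ± 0.82 with −1.66 on array 1. The translational regulator gene orb was above 0 on all arrays, at 0.37 ± 0.35. Among these, osk, egl and plu kept negative ratios on all arrays when local medians were subtracted, whereas cort was then at 0.53 on array 1, yem at 0.10 on array 2 and orb at −0.05 on array 2. With that subtraction 6 genes of the list were below 0 on all arrays (28.6%, against 16.1% of the named genes) and 0 above (against 14.9%). The part of female transcripts in the Yp1 and dhd ratios was not tested.

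Genes of the thioredoxin system other than dhd had means above 0 in 6 of 7 and below 0 in 1. Among all 6793 named genes 2924 means were above 0. Of 7 measured genes out of 10 listed, 4 were above 0 on all 3 arrays (57.1%, against 12.5% of the named genes). None was below 0 on all, against 16.9% of the named genes. By limma 0 of the 7 had a p under 0.05, adjusted or not, where 4.78% of all features had an unadjusted one. The 10 listed include snf, a neighbour of dhd in the genome, which was not measured. The list's median was 0.11, and with local medians subtracted 3 were above 0 on all arrays (against 14.9% of the named genes). The peroxiredoxin gene Prx6a stood at 0.26 ± 0.26 and the reductase gene Trxr2 at 0.17 ± 0.34, with −0.20 on array 3. Txl, a thioredoxin-like gene, was lower at −0.36 ± 0.72, with 0.40 on array 3 (SD, n = 3).

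Lipase genes, the relatives of the yolk proteins by sequence, had a median of 0.07 over 16 measured members out of 24, with 2 below and 2 above 0 on all arrays (12.5% each, against 16.9% and 12.5% of the named genes). CG17191 stood at −0.61 ± 0.57, CG5966 at −0.50 ± 0.17 and CG6431 at 0.39 ± 0.34 (SD, n = 3), each with 1 sign on all arrays. With local medians subtracted CG5966 was at −0.09. Means below 0 were found for 6 of the 16, against 3869 of the 6793 named genes.

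The fat body, the source of circulating yolk protein in females, had a median of −0.02 over 11 measured markers out of 16. The storage protein gene Lsp2 stood at 0.34 ± 0.42, the lipid droplet gene Lsd-2 at 0.21 ± 0.17 and Adh at −0.26 ± 0.25 (SD, n = 3). Of these 11 genes, 2 were below 0 on all arrays and 2 above (18.2% each, against 16.9% and 12.5% of the named genes). The lowest mean was that of Adh, which was −0.05 with local medians subtracted.

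Somatic genes known to differ between the sexes were measured for 4 of 5. The male-enriched odorant binding gene Obp99b stood at −0.34 ± 0.24 (SD, n = 3), below 0 on all 3 arrays. With local medians subtracted its mean was −0.19, and its ratio on array 1 was at 0.00085. Its relative Obp99a stood at −0.09 ± 0.10 and the cytochrome P450 gene Cyp4d21 at 0.06 ± 0.57. The remaining gene, fit, stood at −0.22, −0.06 and 0.18 on arrays 1 to 3, a mean of −0.03 ± 0.20. Of the 4 genes, 1 was below 0 on all arrays (25%, against 16.9% of the named genes) and 0 above (against 12.5%).

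Over 13 measured genes of the accessory gland and testis out of 43, the median was 0.07, with 1 below 0 on all arrays and 1 above (7.69% each, against 16.9% and 12.5% of the named genes). With local medians subtracted, 1 was below and 3 were above 0 on all arrays, against 16.1% and 14.9% of the named genes. By limma 0 of the 13 had an adjusted p under 0.05, as did 0% of all features. At an unadjusted p under 0.05, 1 was lower and 0 higher, where 3.3% of all features were lower and 1.49% higher. The seminal protein genes Acp53Ea, Acp53C14a and Acp32CD stood at 0.17 ± 0.35, 0.15 ± 0.29 and 0.13 ± 0.41 (SD, n = 3). The testis genes dj, of sperm tails, and ocn stood at 0.32 ± 0.33 and 0.17 ± 0.09, while Prosalpha4T1, a proteasome subunit gene of the testis, was at −0.62 ± 0.18 (SD, n = 3). With local medians subtracted, dj was at 0.53, ocn at 0.54 and Prosalpha4T1 at −0.18. A ratio of 0 shows equal amounts in both channels and not that a transcript was present, so the label of male could not be checked from levels.

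**Figure D4:**
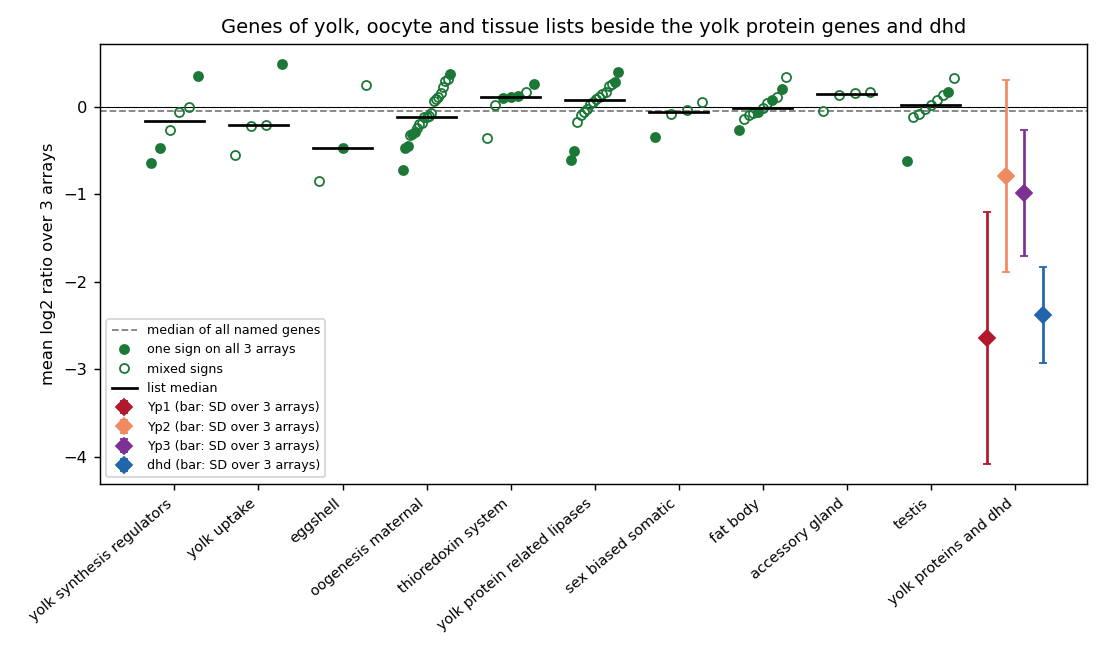
The vertical axis is the mean log2 ratio over 3 arrays of each measured gene, grouped by list along the horizontal axis, with filled points for genes of 1 sign on all arrays; diamonds with SD bars are the yolk protein genes and dhd. The lowest listed gene stands at −0.85. Yp1 and dhd, which were picked for their low ratios, stand at −2.64 and −2.38.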

How the data were processed

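Each deposited value is a log ratio of a spot's channels, read here as log2. The authors took it from normalized data, per the labels. The sources used here leave image analysis, background correction, spot filter, normalization method, log base and direction unstated. A log2 base was taken as log2, because the lowest value, −14.57 on array 1, lies beyond the natural log of a 16-bit scanner's range, 11.09. If the base were the natural one, the mean ratios of Yp1 and dhd would be 14.1-fold and 10.8-fold lower. Symbols came from the platform annotation, updated by gene identifier through the RefSeq table of the Release 6 assembly, of which no coordinates are used. Spots of a gene were averaged, and spots without a single symbol stayed separate features. For each feature limma 3.58.1 (lmFit, eBayes; R 4.3.3) compared the mean with 0, two-sided, with p adjusted over all features; the fit was tested on simulated data. With 3 arrays, their number limits the precision. The labels call the pairs independent.

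Named are the 4 genes, the 3 genes of each of 10 lists with the largest absolute mean, genes of the yolk, eggshell and oogenesis lists with 1 sign on all arrays, the 3 nearest by distance, and genes chosen by position on slide or chromosome. CG14154, drpr, Gdap1 and fit were named after their values were seen. The genes, lists and tests were chosen with earlier results of these data known. Alternatives tried were leaving out each array, centring, local medians, other spot summaries, scaling, single spots, named genes only and a robust fit.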

Additional observations from a re-analysis of the deposited data

How the results depend on the processing

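The mean of a gene below 0 on all arrays cannot change sign without one of them, and the median of 2 spots is their mean, so these settings say nothing of stability. Centring, local medians, the nearest spot and scaling moved the means of the 4 genes by less than 1 SD over arrays. That bound is wide: for Yp2 the SD of 1.10 was larger than the size of its mean, −0.79. The count of features past limma's test was 0 under the 8 alternatives run, with a smallest adjusted p of 0.184 to 0.954, which likewise says nothing of stability at this number of arrays. Without one replicate, the mean ranged from −3.27 to −1.86 for Yp1, from −2.69 to −2.18 for dhd, from −1.29 to −0.59 for Yp3 and from −1.16 to −0.16 for Yp2. The values of −0.59 and −0.16 are those without array 1. With the spot nearest to 0 on each array Yp3 was at −0.59. At an unadjusted p under 0.05 there were 924 features, against 387 for named genes only, where fewer were tested, 82 with a robust fit, 1323 for single spots, 1026 after centring, 1079 with local medians subtracted and 597 to 1208 without one replicate. The 8 yolk and oocyte genes below 0 on all arrays ranged from 8 to 15, and the 3 above 0 from 6 to 7, when one replicate was left out and 2 arrays had to share a sign. The alternatives for the pilot array were not run, since it holds none of the 4 genes. The pairing is already inside every ratio, with both samples of a pair on the same slide, so the test of the mean against 0 is a paired one.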
